A study of Mus musculus with 6 samples.

Results

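The calgranulins S100a8 and S100a9 and 7 further genes for secreted defence proteins of the neutrophil type (Lcn2, Camp, Ngp, Ltf, Wfdc21, Slpi and Saa3) were followed across 6 mouse macrophage arrays. They were chosen by name, with earlier results of these arrays known. S100a8 and Wfdc21 had stood among the leading genes between the genotypes and Lcn2 among the genes induced by lipopolysaccharide, so their values in those contrasts are given as a description, and no p-value of theirs is read as support. Each of the 9 genes had 1 probe set that listed it alone, which makes 9 of the 18193 genes that had such a probe set, and 9 of 45037 probe sets without controls. RNA came from Trib1 knockout macrophages given lipopolysaccharide (LPS, a bacterial cell wall component; 2 arrays), wild-type macrophages of the same Trib1 line given LPS (2 arrays), other wild-type macrophages given LPS (1 array) and wild-type macrophages given medium (1 array). The last 2 arrays form a separate pair of their own and are called the separate LPS array and the medium array. The labels give neither the source of the macrophages, the strain, sex and age of the mice, the dose and time of LPS, nor the form of the Trib1 deletion. They do not say that arrays of a genotype came from separate animals or cultures, so any p-value measures only the spread between these samples, which may be technical.

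Most of the 9 proteins belong to the chemical defence that neutrophils carry in granules or cytosol, and several are also made by activated macrophages and epithelia. Saa3 is an acute-phase protein. S100a8 and S100a9 join into calprotectin, which withholds zinc and manganese from microbes and signals through Toll-like receptors. Lcn2 binds bacterial siderophores, Ltf binds iron, and Camp is the precursor of the cathelicidin peptide. Trib1, a protein of the Tribbles family, promotes the breakdown of C/EBP transcription factors, and these factors drive granule genes during neutrophil maturation and acute-phase genes in macrophages.

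Values are scaled intensities, with every array brought to the same trimmed mean, and values under a floor of 29.9 have no order among themselves. Between 57.9% and 63.0% of probe sets lay above that floor on each array, and precision is limited by how few arrays there are. The macrophage markers Cd68 (15787 to 18601) and Adgre1 (7302 to 11092) were far above the floor on all 6 arrays. Trib1 itself did not bear out the genotype labels. One of its probe sets measured 88.1 and 20.9 on the arrays labelled knockout, against 17.9 and 17.5 on the arrays of that line labelled wild type, while the separate wild-type LPS and medium arrays had 189 and 383. This probe set thus gave a level above the floor in other wild-type cells and lay under it on both Trib1-line arrays labelled wild type, below knockout-labelled array 1. The other probe set measured 32.3 and 38.7 on the knockout-labelled arrays, against 20.2 and 63.0. No source used here places either inside or outside the deleted part. The Trib1-line arrays are therefore called knockout-labelled and wild-type-labelled, and every genotype direction rests on the labels.

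In the genome (GRCm38.p6, RefSeq) S100a8 at chr3:90669071-90670034 and S100a9 at chr3:90692630-90695721 are neighbours. Camp (chr9:109847377-109849456), Ngp (chr9:110419808-110423012) and Ltf (chr9:111019292-111042766) share a stretch of chromosome 9. Lcn2 (chr2:32384637-32387739) and Slpi (chr2:164354070-164356507) lie far apart on chromosome 2, Saa3 at chr7:46711998-46719615 and Wfdc21 at chr11:83746940-83752646. The RefSeq promoter table held 8 of the 9 genes and not Wfdc21. In the 250 bases before the start that this table uses, the C/EBP letters TTGCNNAA, read on both strands, were found for Lcn2, Ngp, Ltf, S100a9, Slpi and Saa3, 6 of the 8, against 9.56% of all 32851 windows in the table. The Saa3 window (chr7:46715677-46715926, minus strand) lies inside the Saa3 span given above. On that strand the span starts at 46719615, so the Saa3 match is not before it. The NF-kB letters GGGANNTTC were found for S100a9 alone (3.23% of windows) and the STAT letters TTCNNNGAA for none of the 8 (7.02% of windows). No match of different motifs overlapped another. A match describes these letters only. The 250 bases of the S100a8, S100a9 and Lcn2 promoters are printed because these genes carry most of the genotype difference described below, and 30 bases around a match for Ngp, Ltf, Slpi and Saa3 because these 4 also hold the letters but differed less between genotypes or ran the other way. All are 5′ to 3′ in the direction of the gene, with matches in capitals.
S100a8 (no match, chr3:90668821-90669070, plus strand): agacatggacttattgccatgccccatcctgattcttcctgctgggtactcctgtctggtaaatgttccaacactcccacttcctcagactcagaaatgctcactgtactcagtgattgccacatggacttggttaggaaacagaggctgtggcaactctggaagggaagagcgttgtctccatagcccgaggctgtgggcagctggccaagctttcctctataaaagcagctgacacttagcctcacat
S100a9 (C/EBP and NF-kB letters, chr3:90695722-90695971, minus strand): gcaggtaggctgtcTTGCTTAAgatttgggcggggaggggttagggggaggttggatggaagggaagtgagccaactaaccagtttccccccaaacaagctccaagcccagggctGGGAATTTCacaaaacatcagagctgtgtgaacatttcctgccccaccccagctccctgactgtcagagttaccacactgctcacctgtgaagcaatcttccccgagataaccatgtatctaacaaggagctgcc
Lcn2 (C/EBP letters, chr2:32387740-32387989, minus strand): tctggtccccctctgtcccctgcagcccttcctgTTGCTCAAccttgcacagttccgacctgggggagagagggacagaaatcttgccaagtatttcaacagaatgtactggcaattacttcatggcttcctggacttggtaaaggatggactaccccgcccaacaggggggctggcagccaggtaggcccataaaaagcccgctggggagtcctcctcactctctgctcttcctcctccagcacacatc
Ngp (C/EBP letters, chr9:110419659-110419688, plus strand): gtcctggtttaTTGCCCAAacctccttgcc
Ltf (C/EBP letters, chr9:111019206-111019235, plus strand): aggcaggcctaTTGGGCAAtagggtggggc
Slpi (C/EBP letters, chr2:164356728-164356757, minus strand): gaatttgtaTTGAGCAAtaggttagagttt
Saa3 (C/EBP letters, chr7:46715757-46715786, minus strand): ggtaagtgggaTTATGCAAgatcaaacagg

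After LPS, 6 of the 9 genes had both knockout-labelled arrays above both wild-type-labelled arrays of the Trib1 line (S100a8, S100a9, Lcn2, Camp, Wfdc21 and Slpi), 1 had both below (Ltf) and 2 overlapped (Ngp and Saa3). Over all 29078 probe sets tested, 15.4% had both knockout-labelled arrays above and 16.3% had both below. A gap of at least 2-fold between the groups held for S100a8, S100a9, Lcn2, Camp and Wfdc21 upward and Ltf downward, with 0.389% and 0.33% of all probe sets in these directions. S100a9 and Camp, with both wild-type-labelled arrays under the floor, were tested only because both knockout-labelled arrays passed it. Their place among the higher genes was thus fixed by the filter. The contrast also helped to choose the genes, so nothing is read from these shares. The median log2 difference of the 9 genes, knockout-labelled minus wild-type-labelled, was 2.02, beside -0.01 over all probe sets tested. That median is the value of Camp, a lower bound set by the floor. The limma fit across all probe sets called 0% in either direction at a Benjamini-Hochberg adjusted p under 0.05, so none of the 9 genes either, and 2.28% higher and 2.71% lower at an unadjusted p under 0.05. Other fits of the same arrays made calls. Leaving out any 1 array, which leaves an arm of 1, gave 5 to 36 probe sets higher and 0 to 32 lower of all tested, and taking the number in the labels as a block also made calls. In bulk RNA, more cells of a type and more RNA per cell cannot be told apart.

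**Figure D1:**
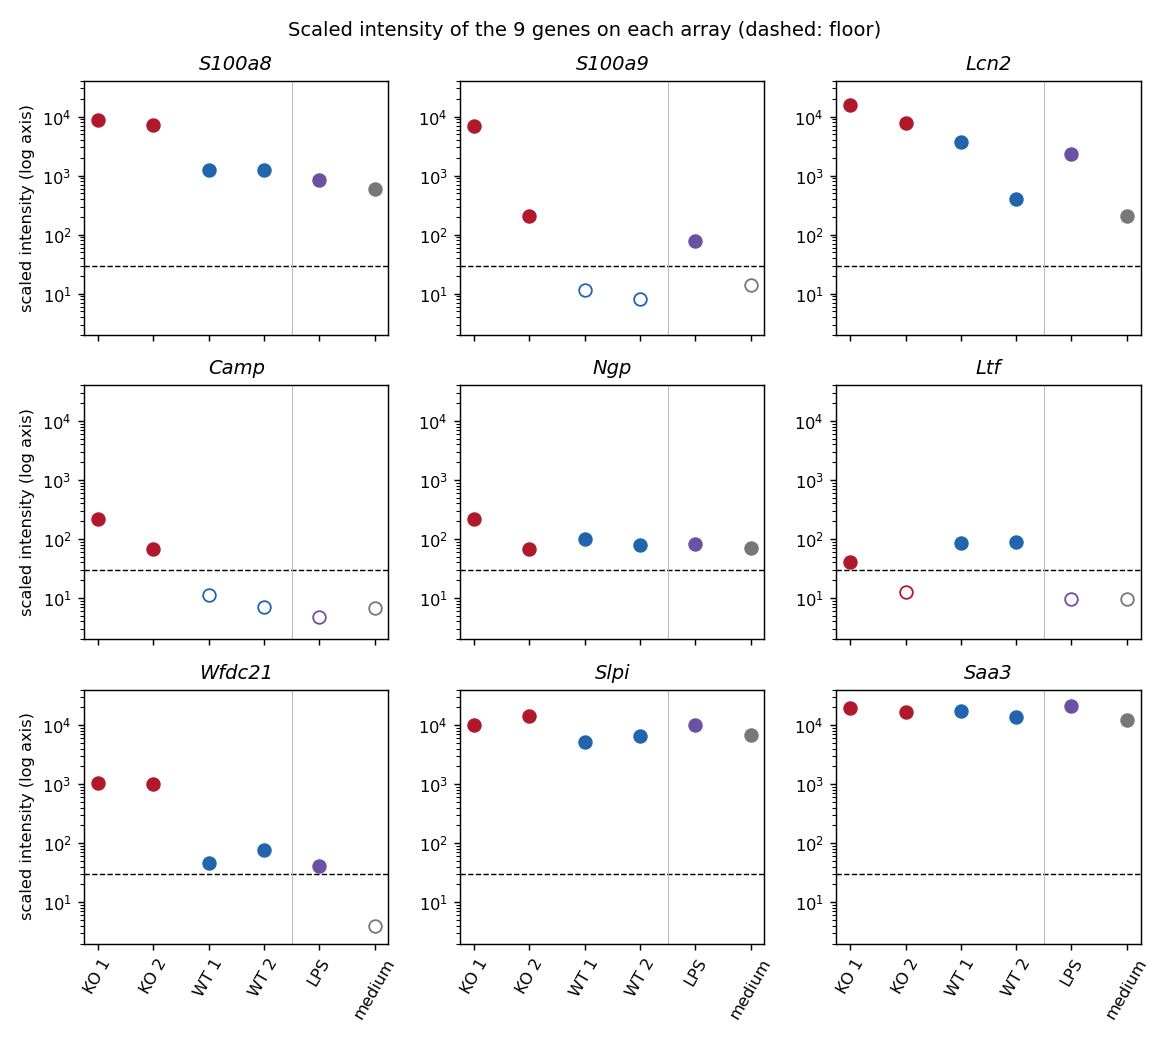
Scaled intensity (log axis) of each of the 9 genes on the 6 arrays: knockout-labelled (KO) and wild-type-labelled (WT) arrays of the Trib1 line after LPS, then the separate LPS and medium arrays. Each point is 1 array, the dashed line is the floor of 29.9 and open points lie under it; S100a8 and Wfdc21 show both knockout-labelled arrays far above all other arrays, while Saa3 is high on every array.

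S100a8, the smaller calgranulin, measured 8853 and 7314 on the knockout-labelled arrays, against 1251 and 1238 on the wild-type-labelled arrays of the Trib1 line. The groups lay 5.85-fold apart at their nearest arrays, and arrays of a genotype differed by at most 1.21-fold. The log2 difference was 2.69 (SE 0.17, n = 2 arrays each), a 6.47-fold higher mean. Its probe set carries the suffix _s_at, which on this array type marks probes that may also match other transcripts.

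S100a9, the partner of S100a8 in calprotectin, measured 6906 and 206 on the knockout-labelled arrays, while both wild-type-labelled arrays of the Trib1 line (11.5 and 8.10) lay under the floor. Both knockout-labelled arrays stood above the wild-type-labelled ones, but they differed 33.6-fold from each other. Against the floor the knockout-labelled mean was at least 39.9-fold higher (log2 5.32, SE 1.53, n = 2 each), and knockout-labelled array 2 alone was at least 6.88-fold above the floor. The log2 difference moved with the floor, from 4.08 with a floor at the 60th percentile to 6.45 with one at the 25th. S100a8 differed little between the same knockout-labelled arrays, so the calgranulin transcripts, which lie side by side in the genome, varied unequally.

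Wfdc21, a small secreted protein of the whey acidic protein (WAP) family, measured 1053 and 994 on the knockout-labelled arrays, against 46.5 and 76.6 on the wild-type-labelled arrays. Both wild-type-labelled values were within 3-fold of the floor, and both knockout-labelled values were far above it and close to each other. The nearest arrays of the groups were 12.97-fold apart, the widest gap of the 9 genes, and the log2 difference was 4.10 (SE 0.32, n = 2 each). Slpi, a WAP-family inhibitor of neutrophil elastase, measured 9941 and 14180 on the knockout-labelled arrays and 5174 and 6605 on the wild-type-labelled arrays. Its groups were also separate, by 1.505-fold, with a log2 difference of 1.02 (SE 0.24, n = 2 each).

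Lcn2, the siderophore-binding lipocalin, measured 15576 and 7749 on the knockout-labelled arrays, against 3714 and 395 on the wild-type-labelled arrays. The groups were separate, yet the wild-type-labelled arrays differed 9.41-fold, more than the 2.09-fold gap between the groups. The log2 difference was 3.18 (SE 1.02, n = 2 each). Leaving out wild-type-labelled array 1 made it 4.80 and leaving out wild-type-labelled array 2 made it 1.56.

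Of the genes on chromosome 9, which encode proteins of secondary granules, 1 stood higher. Camp measured 220 and 66.9 on the knockout-labelled arrays, while the wild-type-labelled arrays (11.04 and 7.03) were under the floor, as were the separate LPS and medium arrays. Its knockout-labelled mean was at least 4.06-fold higher (log2 2.02, SE 0.61, n = 2 each). Ngp, a granule protein related to cystatins, measured 219 and 68.7 on the knockout-labelled arrays and 99.9 and 80.0 on the wild-type-labelled arrays. Those groups overlapped, since knockout-labelled array 2 was the lowest of the 4, and the log2 difference was 0.46 (SE 0.60, n = 2 each). Ltf, which encodes lactoferrin, ran the other way, with 40.2 and 12.7 on the knockout-labelled arrays, the second value under the floor, and 87.0 and 87.2 on the wild-type-labelled arrays (log2 -1.33, SE 0.34, n = 2 each).

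Saa3, an acute-phase protein gene that macrophages express, was the member with the smallest genotype difference. It measured 19124 and 16718 on the knockout-labelled arrays and 17305 and 13818 on the wild-type-labelled arrays. The groups overlapped, with a log2 difference of 0.21 (SE 0.19, n = 2 each).

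**Figure D2:**
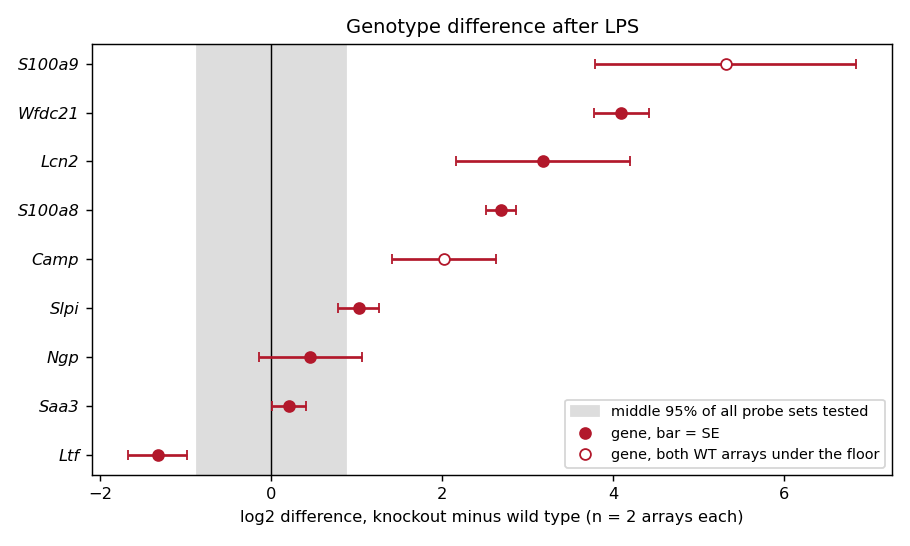
Log2 difference after LPS, knockout-labelled minus wild-type-labelled arrays of the Trib1 line, for each gene (points), with the SE of the limma fit as bars (n = 2 arrays each); the grey band holds the bulk of all probe sets tested, from -0.87 to 0.87. Open points mark genes with both wild-type-labelled arrays under the floor, whose difference is a lower bound; S100a9 at 5.32 has the longest bar, Wfdc21 and S100a8 have short ones, and Ngp and Saa3 lie within the band.

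The separate LPS array is a further wild-type sample that the genotype contrast did not use, though it was deposited at another scale than the Trib1-line arrays. S100a8 measured 857 there, Lcn2 2334, S100a9 77.6, Wfdc21 40.9 and Camp 4.68, all under both knockout-labelled arrays. With it, 5 of the 9 genes had both knockout-labelled arrays above all 3 wild-type-labelled LPS arrays and 0 had both below, beside 10.9% and 8.35% of all probe sets tested. The Trib1-line arrays helped to choose the genes, and S100a9 and Camp were tested only through the knockout-labelled arrays. Nothing is therefore read from these shares either. With the separate LPS array, the nearest arrays were 2.65-fold apart for S100a9 and as far apart as before for S100a8, Lcn2, Camp and Wfdc21. Slpi (10146) was above the lower knockout-labelled array and Saa3 (20860) above both. Ltf (9.71) lay under the floor there, as on knockout-labelled array 2, so its lower level against the wild-type-labelled arrays did not hold over all 3 wild-type-labelled arrays.

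The 2 knockout-labelled arrays differed at least 2-fold for 4 of the 9 genes. Knockout-labelled array 1 stood higher for 8 of the 9, the exception being Slpi, which was 1.43-fold higher on array 2. Array 1 was 33.6-fold higher for S100a9, 3.29-fold for Camp, 3.19-fold for Ngp and 2.01-fold for Lcn2. The ratio was at least 1.34 for Ltf, which was under the floor on array 2, 1.21 for S100a8, 1.14 for Saa3 and 1.06 for Wfdc21. Between the wild-type-labelled arrays, array 1 was higher for 4 of the 9.

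Genes of neutrophils outside the 9 gave values in both directions. Among other neutrophil granule genes, 6 of 14 tested had both knockout-labelled arrays above both wild-type-labelled arrays and 1 had both below (15.4% and 16.3% of all probe sets), with a median log2 difference of 0.56. Of the 6, Olfm4 was tested only because both knockout-labelled arrays passed the floor. By limma 0 of these 14 had an adjusted p under 0.05, and 4 were higher and 0 lower at an unadjusted p under 0.05. Mmp8, the neutrophil collagenase, measured 2587 and 714 on the knockout-labelled arrays, against 212 and 122 on the wild-type-labelled arrays (log2 3.08, SE 0.63). Stfa3, a cystatin-type protease inhibitor, measured 152 and 966 against 28.9 and 53.7 (log2 3.26, SE 0.89), but 196 on the separate LPS array, above knockout-labelled array 1. Hp, the haemoglobin scavenger haptoglobin, differed by 2.39 (SE 0.35), and Mmp9, a gelatinase, by 1.72 (SE 0.39). Chil3, a chitinase-like protein named here after its values were seen, measured 10591 and 1606 against 2097 and 444, groups that overlapped.

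The genes listed as neutrophil markers gave mixed values. Mpo and Elane, enzymes of primary granules, overlapped between the groups, with Mpo at 90.1 and 87.7 on the knockout-labelled arrays and 68.6 and 95.5 on the wild-type-labelled arrays, and Elane at 87.2 and 74.5 against 64.4 and 77.7. Cxcr2, a chemokine receptor, measured 32.6 and 16.7 against 13.8 and 16.8, with only knockout-labelled array 1 of the Trib1-line arrays above the floor. It measured 47.0 on the separate LPS array. Itgb2l (55.4 and 61.1 against 31.8 and 62.2) overlapped, and 2 other probe sets of it ran the opposite way (-0.25 and -0.18). Cd177, a neutrophil surface antigen, was lower on both knockout-labelled arrays (53.4 and 58.5 against 83.6 and 121). The printed intensities of Mpo, Elane, Itgb2l and Cd177, from 31.8 to 121, were not far above the floor. Their overlap or direction is therefore not read as a measure of neutrophil content, which was not tested. Csf3r, the receptor for granulocyte colony-stimulating factor, measured 2170 and 2043 against 1930 and 1494, with 2118 on the separate LPS array. Padi4, a histone-modifying enzyme of neutrophils, measured 4.31 and 43.0 against 27.5 and 30.2 on the Trib1-line arrays, and 724 and 1014 on the separate LPS and medium arrays. Ly6g and Retnlg had no probe set listing them alone in the annotation used. The summed level of the 8 markers measured was 5080 and 3098 on the knockout-labelled arrays, against 2432 and 2020 on the wild-type-labelled arrays, most of it from Csf3r and Mmp8, and 3316 and 2538 on the separate LPS and medium arrays. Their part in the results for the 9 genes was not tested.

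**Figure D3:**
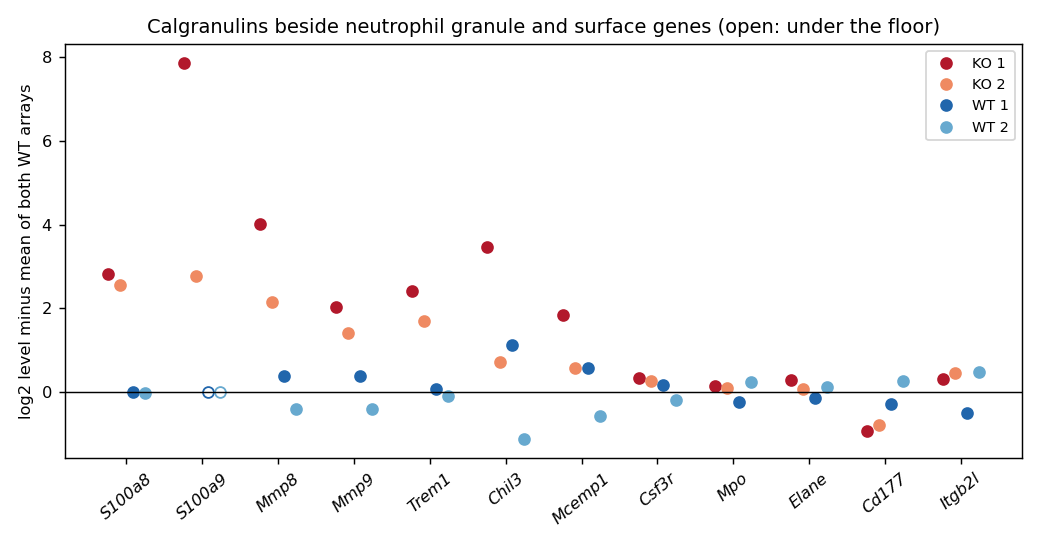
Log2 level of the calgranulins and 10 other neutrophil granule or surface genes on each Trib1-line array, relative to the mean of both wild-type-labelled arrays (values under the floor set to it, open points). S100a8, S100a9, Mmp8, Mmp9, Trem1, Mcemp1 and Csf3r have both knockout-labelled (KO) arrays above both wild-type-labelled (WT) arrays. Chil3, Mpo, Elane and Itgb2l overlap, and Cd177 lies lower on the knockout-labelled arrays.

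Among neutrophil surface and cytosol markers as a wider list, 3 of 6 tested had both knockout-labelled arrays higher and 1 lower (15.4% and 16.3% of all probe sets). The median was 0.35 (limma: 0 at an adjusted p under 0.05, 1 higher and 0 lower unadjusted). Trem1, an amplifying receptor of myeloid cells, measured 318 and 192 on the knockout-labelled arrays and 62.7 and 56.5 on the wild-type-labelled arrays (log2 2.06, SE 0.38). Mcemp1, a myeloid membrane protein gene, measured 1278 and 530 against 526 and 237 (log2 1.22, SE 0.54).

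Markers of other cells gave values in both directions. Over all probe sets tested, 15.4% stood higher and 16.3% lower on both knockout-labelled arrays. Macrophage markers, 6 of 12 higher and 2 lower on both knockout-labelled arrays, summed to 102192 and 109540 on the knockout-labelled arrays and 86055 and 99776 on the wild-type-labelled arrays. Monocyte markers, 1 of 4 higher and 1 lower, summed to 11801 and 2579 against 3117 and 1444, so these sums overlapped. Most of each sum came from Chil3, except on wild-type-labelled array 2, where Vcan (777) exceeded Chil3 (444). F13a1, a clotting factor gene, was higher on both knockout-labelled arrays (657 and 431 against 158 and 142) but 1373 on the separate LPS array. Vcan, a matrix proteoglycan gene, was lower on both (312 and 435 against 694 and 777; log2 -0.995, SE 0.24), with 920 on the separate LPS array. Mast cell markers, 3 of 4 tested lower on both knockout-labelled arrays, summed to 165 and 233 on the knockout-labelled arrays, against 563 and 875 on the wild-type-labelled arrays. B cell markers, 5 of 5 lower, summed to 271 and 402 against 516 and 648, and T and NK cell markers to 167 and 230 against 246 and 294, with Cd3d and Cd2 under the floor on all 4. Mesothelial and stromal markers, 3 of 7 tested higher, summed to 1331 and 3119 against 819 and 1108. Fcer1a of the mast cell list and Cr2 of the B cell list were tested only because both wild-type-labelled arrays passed the floor. On the separate LPS array the sums were 98832 for macrophage, 7257 for monocyte, 1235 for mast cell and 2348 for B cell markers. They were 434 for T and NK cell and 579 for mesothelial and stromal markers. The part of these cells in the levels of the 9 genes was not tested.

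Relatives of the calgranulins differed less. Of 8 other S100 genes tested, 3 had both knockout-labelled arrays higher and 0 lower (median 0.32), beside 15.4% and 16.3% of all probe sets. S100a6 measured 6664 and 7667 on the knockout-labelled arrays and 4421 and 5004 on the wild-type-labelled arrays (log2 0.60, SE 0.17), S100a16 differed by 0.82 (SE 0.41) though the separate LPS array (251) exceeded both knockout-labelled arrays, and S100a13 by 0.38 (SE 0.23). Of 7 other WAP-domain genes tested, 3 were higher on both knockout-labelled arrays and 0 lower (median 0.25), beside the same shares of all probe sets. Wfdc18 measured 945 and 718 against 429 and 509 (log2 0.82, SE 0.23). Wfdc17 measured 19161 and 17233 against 16712 and 15972 (log2 0.15, SE 0.17), with 20972 on the separate LPS array. Wfdc3 differed by 0.64 (SE 0.33) on 1 probe set and by -0.57 on another. By limma 0 of these relatives reached an adjusted p under 0.05, and S100a6 and Wfdc18 had an unadjusted p under 0.05.

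Acute-phase and inducible defence genes beyond Saa3 had 3 of 11 tested higher on both knockout-labelled arrays and 1 lower (15.4% and 16.3% of all probe sets). Their median was 0.37 (limma: 0 at an adjusted p under 0.05, 1 higher and 0 lower unadjusted). Of the 3, Saa1 was tested only because both knockout-labelled arrays passed the floor. Besides Hp, Saa1 measured 245 and 34.4 on the knockout-labelled arrays, against 16.8 and 13.95, under the floor, on the wild-type-labelled arrays, at least 3.07-fold higher. Another probe set of Saa1 was under the floor on all 6 arrays. Like S100a9 and Camp, Saa1 on the first probe set stood far higher on knockout-labelled array 1. That probe set carries the suffix _s_at, as for S100a8, so it may also match other transcripts. Nos2, the inducible nitric oxide synthase, measured 10295 and 10048 against 4615 and 8729 (log2 0.68, SE 0.31), and Acod1, the itaconate-forming enzyme, 18410 and 17643 against 18904 and 20460.

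For receptors and partners of the secreted proteins, 4 of 10 tested were higher on both knockout-labelled arrays and 0 lower (15.4% and 16.3% of all probe sets). Their median was 0.07 (limma: 0 at an adjusted p under 0.05, 1 higher and 0 lower unadjusted). Tlr2, a receptor for bacterial lipopeptides, differed by 1.74 (SE 0.19), but the separate LPS array (5282) exceeded both knockout-labelled arrays (3169 and 3135). Lrp1, an endocytic receptor, differed by 0.36 (SE 0.21), Ly96, the co-receptor of Tlr4, by 0.12 (SE 0.20) and Fpr2, a formyl peptide receptor, by 0.14 (SE 0.17). The separate LPS array exceeded both knockout-labelled arrays for Lrp1 (2513) and Ly96 (1088) as well. Ager, a proposed calgranulin receptor, was under the floor on all 6 arrays.

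Regulators and inducing cytokines had 2 of 14 tested higher on both knockout-labelled arrays and 1 lower, where 15.4% and 16.3% of all probe sets did so. Their median was 0.07 (limma: 0 at an adjusted p under 0.05, 1 higher and 1 lower unadjusted). Csf3, the granulocyte growth factor gene, measured 1092 and 1316 on the knockout-labelled arrays, against 130 and 286 on the wild-type-labelled arrays (log2 2.64, SE 0.40). Il1b differed by 0.41 (SE 0.27), with 21197 on the separate LPS array, above both knockout-labelled arrays. Gfi1, a transcriptional repressor of granulocyte development, measured 31.9 and 69.6 against 190 and 121 (log2 -1.69, SE 0.51). Of the C/EBP genes, named after their values were seen, Cebpb depended on the probe set. The brighter one overlapped, at 11914 and 8046 on the knockout-labelled arrays and 8650 and 5912 on the wild-type-labelled arrays (log2 0.45). The other was higher on both knockout-labelled arrays, at 6322 and 3986, against 3278 and 2017 (log2 0.96) and 3058 on the separate LPS array. Cebpa overlapped, at 723 and 370 against 656 and 356.

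**Figure D4:**
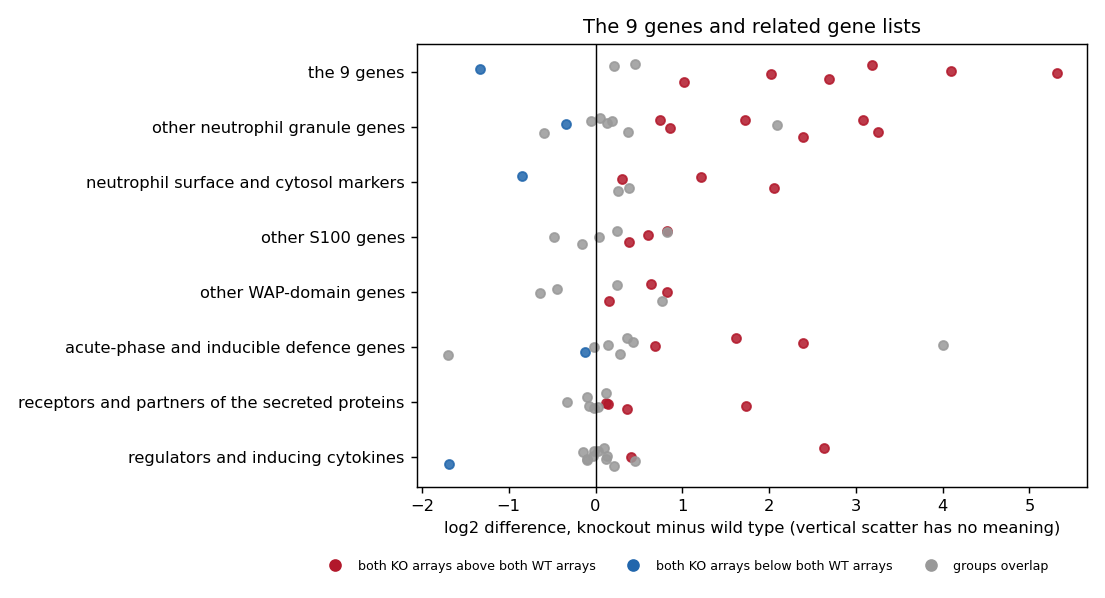
Log2 difference, knockout-labelled (KO) minus wild-type-labelled (WT) arrays of the Trib1 line, for the 9 genes and for the tested genes of 7 related lists, 1 point per gene (n = 2 arrays each). Colour marks whether both knockout-labelled arrays lie above or below both wild-type-labelled arrays; the 9 genes run from -1.33 to 5.32 and were chosen with this contrast known.

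In wild-type macrophages given LPS, set against medium with 1 array each and therefore with no test, Lcn2 alone passed a rule of at least 4-fold. That is 1 of the 9 genes upward and 0 downward, where 0.986% and 0.598% of 29115 probe sets passed. Lcn2 was chosen with its place among the LPS-induced genes known, so nothing is read from these shares. Lcn2 measured 2334 on the LPS array and 209 on the medium array (11.2-fold). The wild-type-labelled Trib1-line arrays stood 17.8-fold and 1.89-fold above the same medium array, and the Trib1 line has no medium array of its own. The median log2 ratio of the 9 genes was 0.50, beside -0.09 over the 29115 probe sets with a value over the floor in medium or with LPS. The sets differ, since the 9 include Camp and Ltf, which were under the floor on both arrays.

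Neither calgranulin passed the 4-fold rule. S100a8 measured 857 with LPS and 605 in medium (1.42-fold), and the wild-type-labelled Trib1-line arrays were 2.07-fold and 2.05-fold above medium. S100a9 measured 77.6 with LPS and was under the floor in medium (14.1), at least 2.60-fold higher, whereas both wild-type-labelled Trib1-line arrays with LPS were under the floor too. Wfdc21 measured 40.9 with LPS and 3.90 in medium, at least 1.37-fold higher against the floor. Its wild-type-labelled Trib1-line arrays were at least 1.56-fold and 2.56-fold above medium.

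Saa3 and Slpi were high in medium already. Saa3 measured 20860 with LPS and 11999 in medium (1.74-fold), with the wild-type-labelled Trib1-line arrays 1.44-fold and 1.15-fold above medium. Slpi measured 10146 with LPS and 6743 in medium (1.505-fold), but 0.77 and 0.98 of the medium level on the wild-type-labelled Trib1-line arrays, so its direction with LPS was not shared. Ngp measured 83.0 with LPS and 70.3 in medium (1.18-fold). Camp and Ltf were under the floor on both arrays, though Ltf on the wild-type-labelled Trib1-line arrays was at least 2.91-fold and 2.92-fold above medium.

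**Figure D5:**
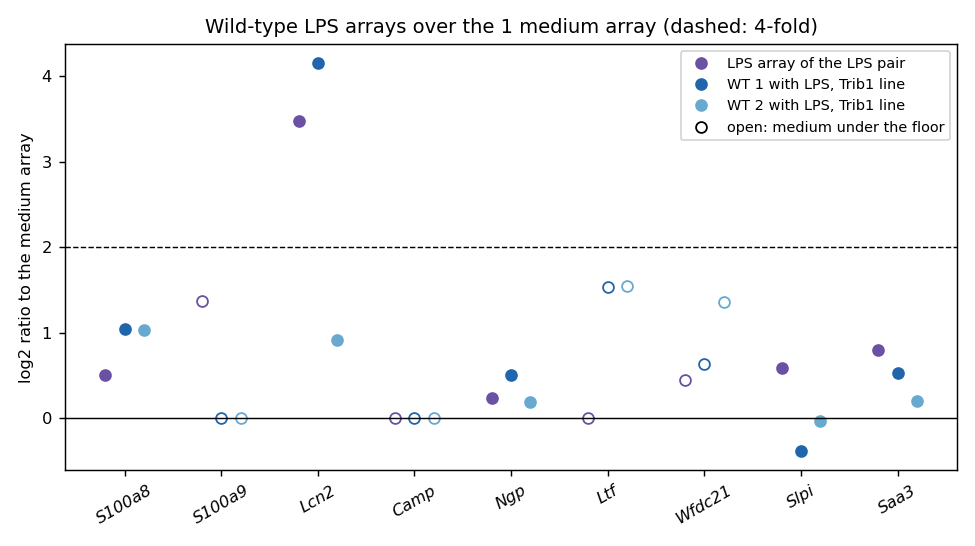
Log2 ratio of each of the 3 wild-type-labelled LPS arrays to the 1 medium array for the 9 genes; open points mark genes under the floor in medium, whose ratio is a lower bound, and the dashed line marks 4-fold. Lcn2 passes the line on 2 of the 3 arrays, and no other gene passes it on any.

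Over the 6 arrays, the genes whose log2 level ran closest to the mean of S100a8 and S100a9 were Ankrd45 (Pearson r = 0.99), Gab1 (0.99), Cyp2c39 (0.99), Camp (0.99) and Mybpc1 (0.99), of 12325 probe sets of 1 gene with a log2 range of at least 1. This is a description over 6 arrays, and each of these genes was highest on knockout-labelled array 1 and next highest on knockout-labelled array 2. Ankrd45 measured 72.7 and 46.7 on the knockout-labelled arrays and was under the floor on all others, so such agreement is easily had near the floor. Within the 9 genes, r with the same mean was 0.92 for Wfdc21, 0.81 for Lcn2, 0.76 for Ngp, 0.62 for Slpi, 0.50 for Saa3 and -0.27 for Ltf.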

How the data were processed

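RNA of 6 macrophage samples was hybridised to one-colour Affymetrix arrays as biotinylated cRNA, per the labels' protocols. Deposited were MAS5 intensities, 1 linear value per probe set and array, per the submitters' processing notes; the software's version and scaling target are not given in the sources used here. As deposited by the authors, the intensity mean after trimming 2% at each end was 500 for the separate LPS and medium arrays but 95.5 to 107 for the Trib1-line arrays, so each array was rescaled to 234. Of 45101 probe sets, 64 controls were left out. Values under the pooled 40th percentile (29.9) were set to it before log2. Probe sets above it on at least 2 of the 4 Trib1-line arrays (29078) were fitted with limma 3.58.1 in R 4.3.3 (lmFit and eBayes with a trend, which gave 2 residual and 3.68 prior degrees of freedom). Tests were two-sided, Benjamini-Hochberg adjusted, at a threshold of 0.05. The smallest p that an exact permutation test allows with 2 arrays per group is 0.333. For LPS, a 4-fold rule was used. Folds against values under the floor are lower bounds.

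Symbols were updated through gene identifiers, and the probe set with the highest mean stood for a gene of a list. From each list up to 4 genes with separate groups were named, largest difference first, with all neutrophil markers, and 5 genes most like the calgranulins. The members and lists were chosen with earlier results of these data known. Alternatives changed the scaling, floor, offset, filter, prior, block, arrays and fold rule. The fit was tested on simulated data. Figures were drawn with Python 3.11.15 and matplotlib 3.10.9.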

Additional observations from a re-analysis of the deposited data

How the results depend on the processing

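With 2 arrays per genotype, single arrays and the model decide the calls. Over all probe sets, the 0 higher and 0 lower calls of the fit held under other scalings, floors, the offset of 16, a filter of at least 1 array, a prior without a trend and the separate LPS array added as a wild type. The number of the labels as a replicate block gave 85 higher and 31 lower, among them S100a8 (adjusted p = 0.00368), Wfdc21 (0.00602) and Slpi (0.0249). No source says that the numbers pair arrays; array 1 minus array 2 correlated between genotypes with r = 0.35 across probe sets. Leaving out each array in turn gave from 5 to 36 higher and 0 to 32 lower. S100a8 passed when an array other than wild-type-labelled array 1 was left out (adjusted p = 0.000942 to 0.0397) and had 0.0642 without it. Wfdc21 passed without each of the 4 in turn (0.00331 to 0.0457) and Lcn2 without wild-type-labelled array 1 (0.0457). The contrast helped to choose these genes, so their calls are no support. The lone array of a genotype is then assumed to vary like the others. Between 5 and 8 members stood higher on the knockout-labelled arrays under the alternatives. Those lower numbered 0 with the separate LPS array added as a wild type and 1 to 2 when 1 array was left out. The log2 difference of Ngp ran from -0.38, without knockout-labelled array 1, to 1.30 when single arrays were left out. Without either knockout-labelled array, S100a9 and Camp left the fit, being above the floor on 1 array only. No other member's difference changed sign.

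For LPS, the count of members past the fold rule was 3 with the values as deposited and 2 with a floor at the 25th percentile, since S100a9 (and Wfdc21 as deposited) was under the main floor in medium. It was 0 with wild-type-labelled array 2 of the Trib1 line in place of the LPS array and 2 at a fold of at least 2. The floor limits S100a9, Camp, Ltf and Wfdc21 most, each with at least 1 array under it.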
